A study of Mus musculus with 7 samples.

Results

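Gene-desert regions were the open chromatin regions of mouse mammary tumour cells that lay outside protein-coding genes and far from the start of any of them. Regions of the Dll1+ and Dll1- lists of open chromatin that overlapped or touched were merged into union regions, and a union region was counted as a gene-desert region when its midpoint lay more than 250 kb from every protein-coding transcription start site (TSS) and outside every protein-coding gene body. The rule was met by 4646 of 119215 union regions, or 3.90%. Because the rule used position alone, the list in which a region was found, its strength and its sequence were free to vary.

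Gene deserts are long stretches of the genome that hold no protein-coding gene. Many border genes that control development, and some hold enhancers, which are stretches of regulatory DNA that transcription factors bind and that can act on a promoter far away through looping of the chromatin. An active enhancer is usually open to enzymes, so an assay of open DNA can find candidates without knowing the gene that they act on. Deserts are also rich in A and T bases and in repeats, and in many cell types they hold few open sites.

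Open DNA was mapped by ATAC-seq, in which a transposase cuts accessible chromatin and tags it for sequencing, in cells of mice that carried both MMTV-PyMT and a Dll1-mCherry reporter. MMTV-PyMT uses a mammary tumour virus promoter to drive the polyoma middle T oncoprotein mainly in mammary epithelium, and the reporter marks cells in which the regulatory DNA of Dll1, a Notch ligand gene, is active. Cells with the surface proteins CD45, CD31 or Ter119 were removed, and the rest were sorted by mCherry into Dll1+ cells (3 samples) and Dll1- cells (4 samples) from 4 tumours, 3 of which gave both. All samples carried the same transgenes, no treatment was labelled, and the age of the mice is not given in the sources used here. The values were those of 2 pooled lists, 1 for each cell group, so no difference between the groups could be set against the spread between tumours, and no p-value was computed. Intervals are 95% intervals that cover counting error only, and regions are not replicates of a cell group.

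A few measurements of the whole lists bear on the comparisons. The Dll1- list was the deeper, with a genome-wide background of 7.20 reads (3.74 for Dll1+, so 1.93 times deeper), and it held 148923 rows against 132872. The promoters of all 8 epithelial marker genes, among them Epcam and Krt8, were open in both lists. Open promoters in Dll1+ cells included 1 of 5 immune, 1 of 4 endothelial and 2 of 6 fibroblast markers, and in Dll1- cells 2, 2 and 3 of them. Cd14, Kdr, Col1a1 and Pdgfra were open in both, and Ptprc, Cd3e, Cdh5, Tek, Dcn, Lum and Thy1 in neither. Csf1r, Pecam1 and Col1a2 were open in the Dll1- list alone, and the part of other cells in the differences described here was not tested.

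The sequences at the summits of the strongest gene-desert regions show what the regions hold. Each run below is 200 bases around the strongest summit on the plus strand of GRCm38, with matches to a searched transcription factor consensus in capitals. They are the regions with the highest fold enrichment (reads at the summit over local background) in each class, a pair per class.
Both lists, Flrt2 to Galc desert, chr12:97061664-97061863: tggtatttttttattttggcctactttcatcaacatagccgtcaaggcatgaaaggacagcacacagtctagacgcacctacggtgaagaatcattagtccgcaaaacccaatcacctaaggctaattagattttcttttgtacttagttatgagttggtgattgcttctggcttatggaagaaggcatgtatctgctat
Both lists, Fam84a to Trib2 desert, chr12:15566177-15566376: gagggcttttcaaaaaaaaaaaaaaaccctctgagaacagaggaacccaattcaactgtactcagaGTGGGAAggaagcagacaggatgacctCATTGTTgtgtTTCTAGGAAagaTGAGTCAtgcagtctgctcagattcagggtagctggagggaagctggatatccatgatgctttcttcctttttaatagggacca
Dll1+ only, Slc10a2 to Efnb2 desert, chr8:7060417-7060616: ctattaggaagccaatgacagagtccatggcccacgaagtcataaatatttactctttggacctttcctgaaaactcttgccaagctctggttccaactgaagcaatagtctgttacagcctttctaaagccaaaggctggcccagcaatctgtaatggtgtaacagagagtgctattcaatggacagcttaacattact
Dll1+ only, Mdga2 to Rps29 desert, chr12:68643704-68643903: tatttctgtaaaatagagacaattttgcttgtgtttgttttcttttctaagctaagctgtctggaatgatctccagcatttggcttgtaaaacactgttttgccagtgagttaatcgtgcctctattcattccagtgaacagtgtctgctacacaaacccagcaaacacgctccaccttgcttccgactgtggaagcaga
Dll1- only, Hs3st4 to Kdm8 desert, chr7:124828780-124828979: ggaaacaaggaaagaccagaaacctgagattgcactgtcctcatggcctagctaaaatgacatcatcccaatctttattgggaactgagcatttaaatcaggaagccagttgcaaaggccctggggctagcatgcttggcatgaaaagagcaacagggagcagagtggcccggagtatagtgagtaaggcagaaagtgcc
Dll1- only, Gucy1a2 to Aasdhppt desert, chr9:4020132-4020331: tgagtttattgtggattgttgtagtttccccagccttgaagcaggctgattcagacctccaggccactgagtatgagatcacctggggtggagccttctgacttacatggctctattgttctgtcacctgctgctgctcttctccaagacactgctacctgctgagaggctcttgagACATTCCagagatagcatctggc

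The region between Flrt2 and Galc, which ranked highest of the desert regions found in both lists, resembled mitochondrial DNA over 138 of its 208 bp and lay 1155 kb from the nearest protein-coding TSS. Its fold enrichment was 31.1 for Dll1+ and 34.5 for Dll1-, and the part of mitochondrial reads in it was not tested. In the Fam84a to Trib2 desert, the next region (chr12:15565897-15566508) held 4 matches, 1 each to the consensus of AP-1, SOX, RBPJ and STAT, within its summit window. It had 313 Dll1+ reads and 473 Dll1- reads at the summit, a log2 ratio of 0.35 once scaled to the genome-wide backgrounds. The region of highest fold in the Dll1+ list alone (chr8:7060159-7060905) lay 1579 kb from the nearest protein-coding TSS, that of the ephrin gene Efnb2, with a fold of 13.3 and 63 reads. The strongest in the Dll1- list alone (chr7:124828730-124829089), in the desert between Hs3st4 and Kdm8, had a fold of 14.8 and 120 reads. A Dll1+ region between the protocadherin genes Pcdh20 and Pcdh9 (chr14:91089160-91089644) lay farthest from any protein-coding TSS, at 2618 kb, and had a fold of 8.86.

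The deserts were thinly but unevenly populated. Bases that met the rule covered 499 Mb, 18.9% of the genome, and held 9.30 union regions per Mb against 53.3 per Mb in the rest of the genome, a 5.73-fold difference. The desert sequence was 38.4% GC and 44.4% soft-masked repeat, whereas the genome as a whole was 41.7% GC and 36.4% soft-masked. These lengths and shares include chromosome Y, where 31599995 bp met the rule and 30649126 bp of them were soft-masked. No desert region lay on chromosome Y, and the values were not computed without it. Within the deserts a region lay a median of 8.85 kb from its nearest neighbour among all union regions, against 3.54 kb for regions outside gene bodies at 1 to 250 kb from a TSS. No other called region stood within 50 kb of 17.0% of the desert regions and 2.20% of those at 1 to 250 kb. These 43443 regions at 1 to 250 kb serve as the comparison in what follows.

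Desert regions were close to the comparison regions in width and fold enrichment, but they had fewer reads and were poorer in G and C. Median width was 418 bp against 422 bp, and the median fold enrichment was 6.97 against 6.77 for Dll1+ and 5.56 against 5.81 for Dll1-. Median reads at the summit were 36 against 43 for Dll1+ and 47 against 61 for Dll1-. Median GC content was 43.5% in the deserts and 47.9% at 1 to 250 kb. Among the desert regions, those in both lists were the widest, with a median of 542 bp against 312.5 bp for Dll1+ only and 297 bp for Dll1- only. Of 623 desert regions at or above the 90th percentile of fold in at least 1 list, 621 were in both lists and 2 in the Dll1- list alone. This was much the same elsewhere, with 5340 of 5351 such regions in both lists at 1 to 250 kb and 17103 of 17130 over all union regions. Few desert regions were repeats: 64 of 4646 were at least 80% soft-masked, and 7 resembled mitochondrial DNA. The soft-masked share was still larger than elsewhere, with 259 of 43443 regions at 1 to 250 kb and 475 of 119215 union regions.

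Most gene-desert regions were open in both cell groups, and those found in 1 list only leaned towards Dll1+ cells more than elsewhere in the genome. Both lists held 2727 of them (58.7%, interval 57.3 to 60.1%), 696 were found in the Dll1+ list only (14.98%, 14.0 to 16.0%) and 1223 in the Dll1- list only (26.3%, 25.1 to 27.6%). Over all union regions the shares were 66.4%, 9.01% and 24.6%. At 1 to 250 kb from a TSS they were 64.2%, 8.66% and 27.1%. The Dll1+ only share was thus 6.32 percentage points higher in the deserts than at 1 to 250 kb (5.29 to 7.41), the share in both lists differed by -5.50 points (-6.99 to -4.02), and the interval of the difference in the Dll1- only share included 0 (-0.82 points, -2.14 to 0.53). Of the regions in 1 list only, 36.3% were Dll1+ in the deserts (34.1 to 38.4%) and 24.2% at 1 to 250 kb (23.5 to 24.9%).

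The Dll1+ only share was higher farther from a TSS, with no step at the limit of the rule. Outside gene bodies it was 2.88% within 1 kb of a TSS, 6.95% at 1 to 10 kb, 7.93% at 10 to 50 kb, 9.55% at 50 to 100 kb and 11.4% at 100 to 250 kb. Beyond the limit it was 14.3% at 250 to 500 kb (3310 regions), 16.2% at 500 to 750 kb (895), 13.9% at 750 to 1000 kb (244) and 22.3% above 1000 kb (197, interval 17.1 to 28.6%). In the 25 kb just beyond the limit it was 13.1%, and in the 25 kb just short of it 12.3%. The Dll1- only share was 11.9% within 1 kb of a TSS, 27.1% at 1 to 10 kb, 27.2% at 250 to 500 kb and 18.8% above 1000 kb.

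**Figure D1:**
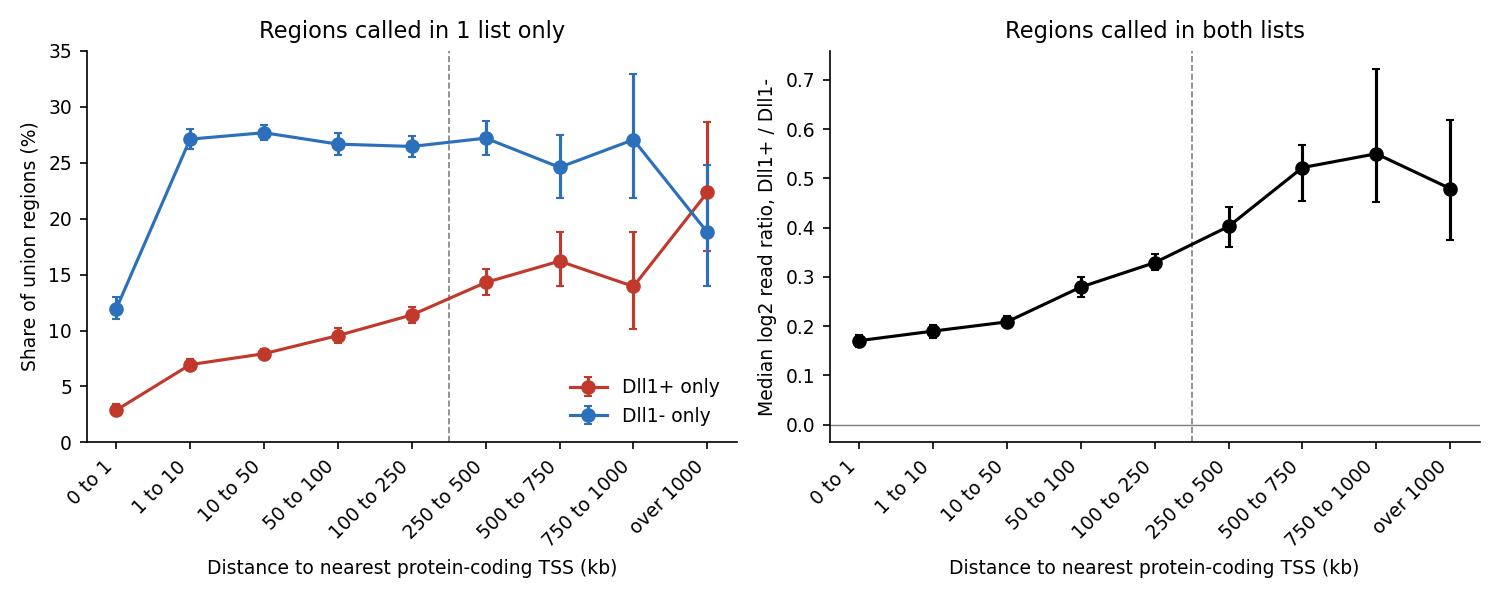
Share of union regions outside gene bodies that were called in the Dll1+ list only or the Dll1- list only (left, %) and median log2 read ratio of Dll1+ to Dll1- at regions in both lists (right), by distance to the nearest protein-coding TSS in kb, with 95% intervals. The dashed line marks the 250 kb limit. The Dll1+ only share goes from 2.88% nearest to a TSS to 22.3% farthest from one. The Dll1- only share is 11.9% nearest to a TSS, 27.1% at 1 to 10 kb and 18.8% above 1000 kb.

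The difference held on each chromosome and in part within classes of base composition. On all 20 chromosomes with a gene-desert region, the Dll1+ only share was higher in the deserts than at 1 to 250 kb, by 1.97 to 11.9 points, and the Dll1- only share was higher on 11 of 20. GC content moved with distance, from a median of 58.4% within 1 kb of a TSS to 40.4% above 1000 kb. When the regions at 1 to 250 kb were weighted to the strength and GC content of the desert regions, their Dll1+ only share was 11.3%, which left a difference of 3.66 points in place of 6.32. The Dll1+ only share was higher in the deserts in all 8 classes of GC content, and in 3 of these the intervals did not overlap. At 44 to 48% GC it was 13.8% against 8.96%, whereas at 36 to 40% GC it was 16.6% against 16.5%.

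**Figure D2:**
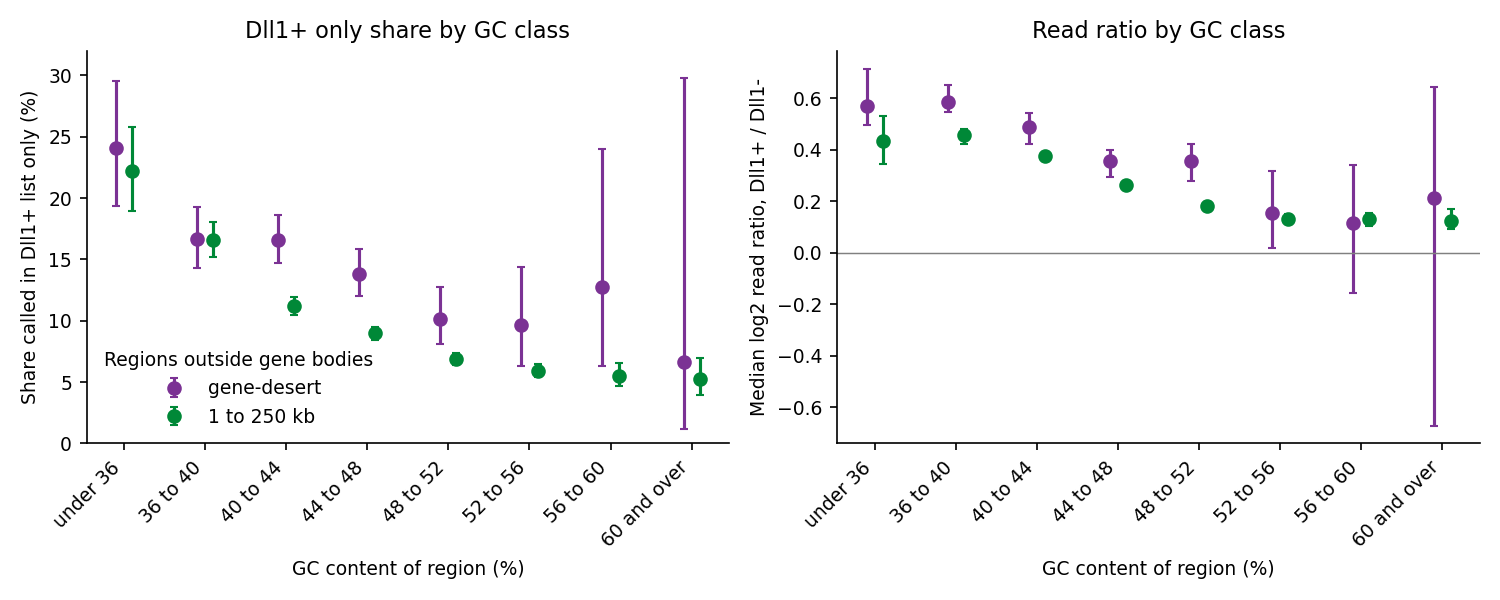
Share of regions called in the Dll1+ list only (left, %) and median log2 read ratio at regions in both lists (right), for gene-desert regions and regions at 1 to 250 kb from a TSS, in classes of GC content (%), with 95% intervals. In the deserts the share is 24.1% under 36% GC and 9.62% at 52 to 56% GC, and the desert values lie above the others in every class except for the ratio at 56 to 60% GC.

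Which list held more of the regions found in 1 list only depended on how the lists were scaled and cut. With both lists held to the same p-value after the Dll1- reads were scaled to the depth of the Dll1+ list, 20.3% of 4117 desert regions were Dll1+ only and 19.7% Dll1- only, so the order of the classes turned. The excess of the Dll1+ only share over regions at 1 to 250 kb was then 8.37 points.

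Regions open in both cell groups gave the same contrast in reads. The log2 ratio of reads at the summit, Dll1+ over Dll1-, each scaled to the genome-wide background of its list, had a median of 0.44 at the 2727 desert regions (0.41 to 0.48, middle range by quartiles 0.03 to 0.85). It was 0.24 at 1 to 250 kb (0.23 to 0.24) and 0.24 over all regions in both lists. The median was thus above 0 in each set, and that of the deserts stood 0.20 higher. The ratio was above 0 at 76.6% of desert regions, 67.6% at 1 to 250 kb and 69.8% of all regions in both lists. At least 2-fold more reads in Dll1+ cells were present at 463 desert regions, or 17.0% (15.6 to 18.4%), against 7.61% at 1 to 250 kb and 7.37% of all regions in both lists. At least 2-fold more reads in Dll1- cells were present at 40 desert regions, or 1.47%, against 2.39% and 1.74%. The median ratio was higher in the deserts than at 1 to 250 kb on 20 of 20 chromosomes, in 7 of 8 classes of GC content and in 10 of 10 classes of strength. On the log2 scale the mean ratio was 0.43 in the deserts, 0.22 at 1 to 250 kb, and 0.31 at 1 to 250 kb after weighting to the strength and GC content of the desert regions.

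The sequence under the summits differed most for AP-1, the dimers of Fos and Jun proteins that bind TGACTCA. The search covered both strands and 100 bp on each side of a region's strongest summit. AP-1 matches were present at 394 of 1223 Dll1- only desert regions (32.2%, 29.7 to 34.9%), at 480 of 2727 in both lists (17.6%, 16.2 to 19.1%) and at 50 of 696 Dll1+ only (7.18%, 5.49 to 9.35%). The Dll1+ only share was lower than the Dll1- only share by 25.0 points, with the signed difference between -28.2 and -21.7. Windows 1 kb from the summit held a match in 3.30% of Dll1+ only, 3.23% of shared and 4.37% of Dll1- only regions, so the Dll1+ only regions were 2.17 times and the Dll1- only regions 7.36 times over their flanks. The same letters stood at 18.1% of all union summits, and at 1 to 250 kb at 4.92% of Dll1+ only and 31.7% of Dll1- only summits. Among desert regions open in both groups, the median log2 read ratio was -0.01 for 480 regions with the letters (-0.05 to 0.08) and 0.52 for 2247 without them (0.50 to 0.55), with -0.09 and 0.31 at 1 to 250 kb.

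The remaining consensus sequences varied less between the classes of desert regions. TGTGGTT of the RUNX factors was at 7.33% of Dll1+ only and 4.66% of Dll1- only summits, a difference of 2.67 points (0.50 to 5.08), and TTCNNNGAA of the STAT factors at 10.3% and 7.60%, a difference of 2.74 points (0.13 to 5.57). With windows of 50 bp each side the differences were 0.96 and 1.45 points. The intervals of both come close to 0 and 11 consensus sequences were compared. For CTCF, TEAD (ACATTCC), FOX (TGTTTAC), SOX (AACAATG), GRHL (AACCGGTT), ETS (CCGGAAG), NF-kB and RBPJ (GTGGGAA), the interval of the difference between Dll1+ only and Dll1- only included 0. NF-kB, the factor family of inflammatory and survival signalling, had a match at 2.16% of Dll1+ only and 3.11% of Dll1- only summits. RBPJ, the DNA-binding partner of the Notch receptors, had 3.83% at desert summits and 3.70% at windows 1 kb away. Over all union summits the shares were 3.02% for NF-kB, 4.30% for RBPJ, 5.06% for RUNX, 6.91% for STAT, 5.08% for TEAD, 3.73% for FOX, 0.273% for GRHL and 3.10% for ETS.

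Deserts differed from regions nearer to a TSS most in the SOX and CTCF letters. SOX matches stood at 9.28% of desert summits and 5.43% at 1 to 250 kb, a difference of 3.85 points (3.02 to 4.74), with 5.02% over all union summits. At windows 1 kb away they stood at 4.37% and 3.28%, in sequence that was poorer in G and C in the deserts. Desert regions in both lists with the SOX letters had a median log2 read ratio of 0.60 (0.52 to 0.66), and those without 0.42 (0.39 to 0.45), with 0.35 and 0.23 at 1 to 250 kb. Both measures moved with GC content in the deserts. At 36 to 40% GC 12.6% of regions had the SOX letters and the median ratio was 0.59. At 48 to 52% GC the values were 4.71% and 0.36. The part of GC content in the SOX contrast was not tested. CTCF, the factor that anchors chromatin loops, had a match at 2.17% of desert summits and 5.12% at 1 to 250 kb, a difference of -2.95 points (-3.38 to -2.44), with 3.87% over all union summits. The differences for STAT (1.61 points), FOX (1.04), TEAD (0.91), RUNX (0.70), NF-kB (-0.73) and ETS (-0.96) were smaller, with intervals that left out 0. For AP-1 as a whole the interval included 0, at 19.9% of desert summits and 20.6% at 1 to 250 kb (interval of the difference -1.88 to 0.54 points).

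**Figure D3:**
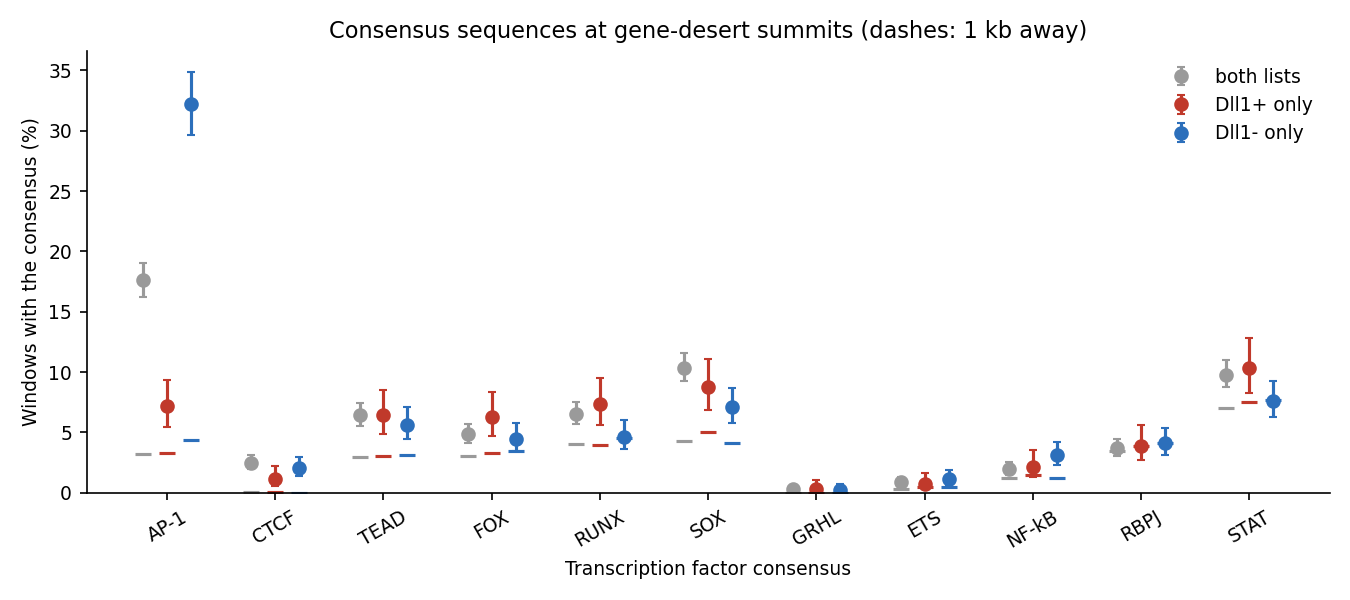
Share of gene-desert regions (%) whose summit window of 100 bp each side holds a transcription factor consensus, by the list in which the region was found, with 95% intervals; dashes give the share at windows 1 kb away. AP-1 separates the classes, at 32.2% of Dll1- only, 17.6% of shared and 7.18% of Dll1+ only regions.

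The regions were spread over many deserts. Of 828 gene-to-gene intervals with bases that met the rule, 561 held a region, 267 held none and 93 held 1. Another 60 held at least 20 each, 1782 regions together, and the 10 fullest held 461 (9.92%). Dll1+ only regions outnumbered Dll1- only regions in 123 of the occupied intervals, were fewer in 303 and equal in 135. With both lists held to the same p-value after depth scaling, they outnumbered them in 199 of 548 occupied intervals, were fewer in 182 and equal in 167. Among 204 intervals with at least 5 regions in both lists, the median log2 read ratio was above the median of all regions in 147, and it was below 0 in 17.

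The fullest deserts held from 41 to 57 regions. The desert between Nudt12 and Efna5, a gene for an ephrin ligand that guides cells, held 57 regions, of which 35 were in both lists, 11 Dll1+ only and 11 Dll1- only. Zeb2 encodes a repressor that drives loss of epithelial traits, and its desert towards the activin receptor gene Acvr2a held 55 regions, of which 37 were in both lists, 5 Dll1+ only and 13 Dll1- only. The desert between Nmbr and the transcriptional coactivator gene Cited2 held 48 regions with a highest fold of 28.7 for Dll1+ and 32 for Dll1-. Between Sel1l and the adhesion gene Flrt2 there were 47, and the 30 in both lists had a median log2 read ratio of 0.80. Gata3, the transcription factor gene of luminal mammary cells, bordered 44 regions towards Celf2, with 33 in both lists, 3 Dll1+ only and 8 Dll1- only. The deserts of Kif2a to Ndufaf2 (44), Agtr1b to Tbl1xr1 (42), Adgrl2 to Adgrl4 (42), Myc to Gsdmc (41) and Ttll7 to Adgrl2 (41) were the others among the 10 named, and Slc10a2 to Efnb2 tied with the last of them at 41 (25 in both lists, 7 Dll1+ only, 9 Dll1- only, median log2 ratio 0.98). With both lists held to the same p-value after depth scaling, the Dll1+ only and Dll1- only counts were 9 and 6 for Nudt12 to Efna5, 5 and 6 for Zeb2 to Acvr2a, 5 and 7 for Nmbr to Cited2, 13 and 6 for Sel1l to Flrt2 and 5 and 8 for Celf2 to Gata3.

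In some deserts Dll1+ only regions outnumbered Dll1- only regions, and the highest excess, 7, was shared by a pair of them. One was the desert between Tfap2b, which encodes the transcription factor AP-2 beta, and Pkhd1 (chr1:19238577-20057778). It held 21 regions, of which 14 were in both lists, 7 Dll1+ only and 0 Dll1- only. The Dll1+ only regions there were weak, with folds of 2.52 to 6.02 and 18 to 33 reads, and the 14 shared regions had log2 read ratios of -0.68 to 1.22, with 12 above 0. The other, between Brinp1, a gene expressed mainly in neurons, and the centrosome gene Cdk5rap2 (chr4:68954398-70216855) also held 21 regions, of which 10 were in both lists, 9 Dll1+ only and 2 Dll1- only. Of its 10 shared regions 9 had a ratio above 0 and 5 were at least 2-fold higher in Dll1+ cells, with a median log2 ratio of 1.14. One of them (chr4:69622309-69623226) had 158 Dll1+ reads and 89 reads from the deeper Dll1- list, a log2 ratio of 1.77, and the shared region with the lowest ratio (chr4:69812359-69812874) had 51 and 153 reads, a log2 ratio of -0.64. Next came Gja1 to Hsf2, beside the gap junction gene Gja1 (9 Dll1+ only, 4 Dll1- only), and Marcks to Rfpl4b (6 and 1). With both lists held to the same p-value after depth scaling, the counts were 6 and 0 for Tfap2b to Pkhd1, 7 and 1 for Brinp1 to Cdk5rap2, 9 and 3 for Gja1 to Hsf2 and 7 and 1 for Marcks to Rfpl4b, so that none of these exceeded the excess of Sel1l to Flrt2 under that setting.

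In other deserts Dll1- only regions outnumbered Dll1+ only regions, and these included those of Myc and Sox9. The desert between Myc, a growth-promoting transcription factor gene, and Gsdmc (chr15:61990375-63775967) held 41 regions, of which 20 were in both lists, 3 Dll1+ only and 18 Dll1- only. Its Dll1- only regions had folds of 2.56 to 8.90 and 20 to 72 reads, AP-1 letters stood at 11 of all 41 summits, and the 20 shared regions had a median log2 read ratio of 0.16. Sox9 encodes a transcription factor of epithelial and cartilage progenitors with known enhancers far upstream. Its desert towards the potassium channel gene Kcnj2 (chr11:111076822-112782223) held 21 regions, of which 6 were in both lists, 0 Dll1+ only and 15 Dll1- only. The 15 Dll1- only regions had folds of 3.05 to 8.78 and lay 312 to 1434 kb from the Sox9 edge of the desert, and the 6 shared regions had median folds of 6.86 for Dll1+ and 6.79 for Dll1- and a median log2 ratio of 0.08. The desert of Cd83 and Jarid2, a gene for a Polycomb component, held 15 regions in both lists, 0 Dll1+ only and 11 Dll1- only, with a median log2 ratio of -0.14. Ttll7 to Adgrl2 (6 Dll1+ only, 20 Dll1- only) and Rps24 to Zmiz1 (2 and 15) were tilted the same way in counts, and their shared regions had median log2 ratios of 0.08 and 0.24. With both lists held to the same p-value after depth scaling, the Dll1+ only and Dll1- only counts were 4 and 13 for Myc to Gsdmc, 0 and 10 for Kcnj2 to Sox9, 0 and 8 for Cd83 to Jarid2, 6 and 11 for Ttll7 to Adgrl2 and 3 and 13 for Rps24 to Zmiz1.

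**Figure D4:**
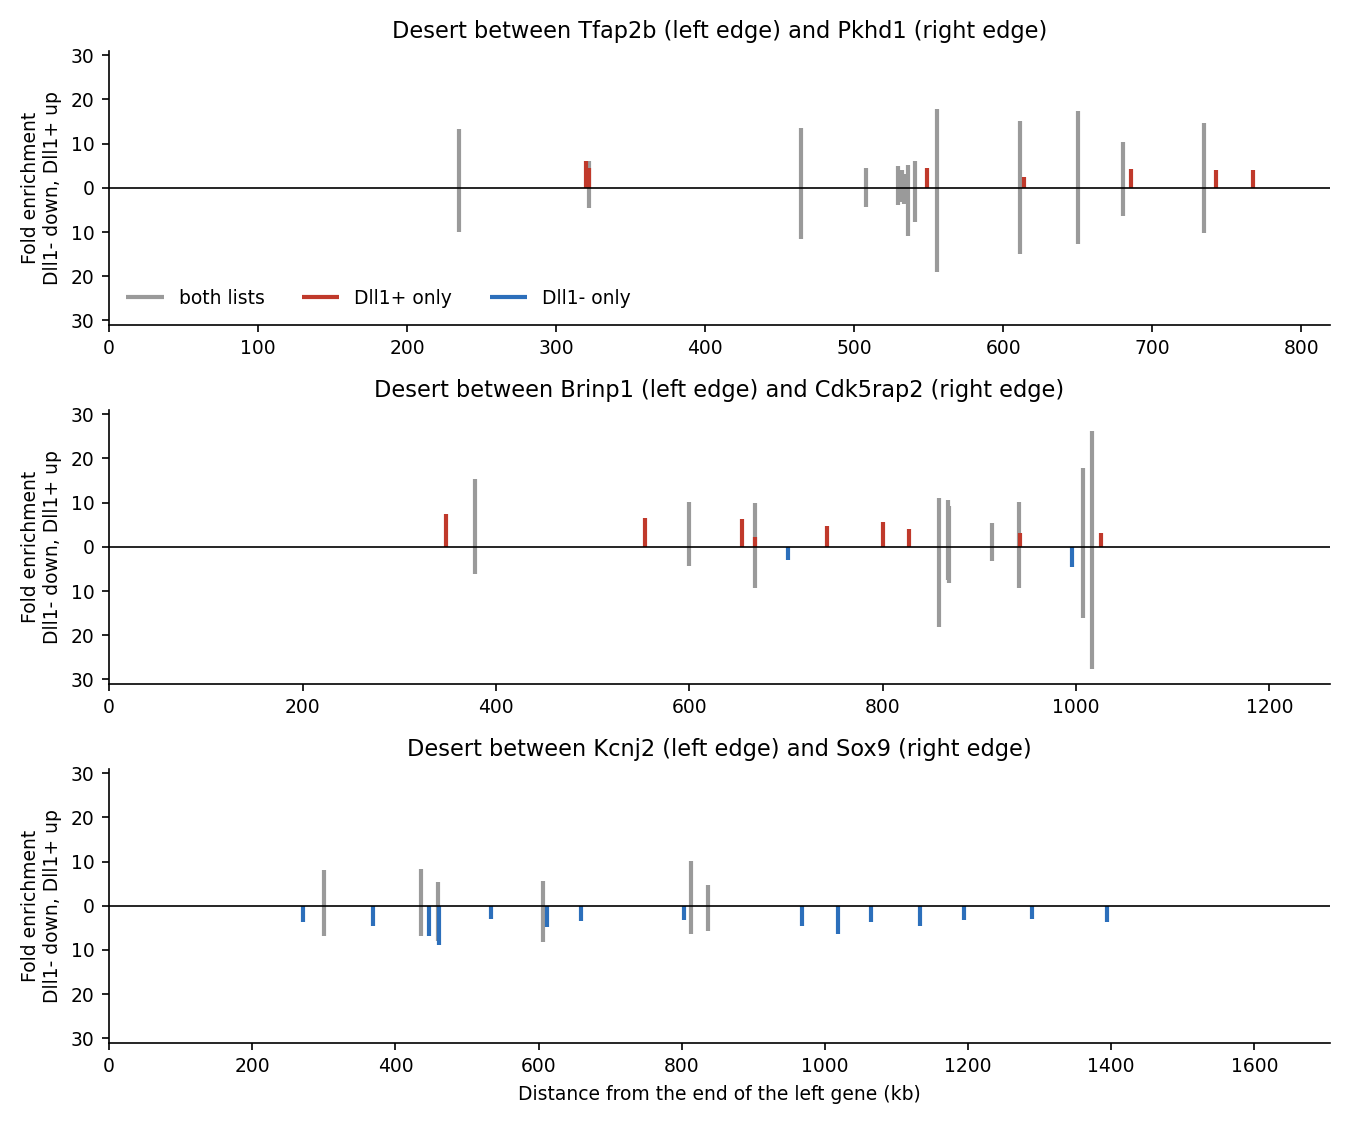
Fold enrichment of every gene-desert region in the deserts of Tfap2b to Pkhd1, Brinp1 to Cdk5rap2 and Kcnj2 to Sox9, against distance from the end of the left gene (kb), drawn upward for the Dll1+ list and downward for the Dll1- list. Grey lines are regions in both lists; red lines (Dll1+ only) number 7, 9 and 0, and blue lines (Dll1- only) number 0, 2 and 15.

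**Figure D5:**
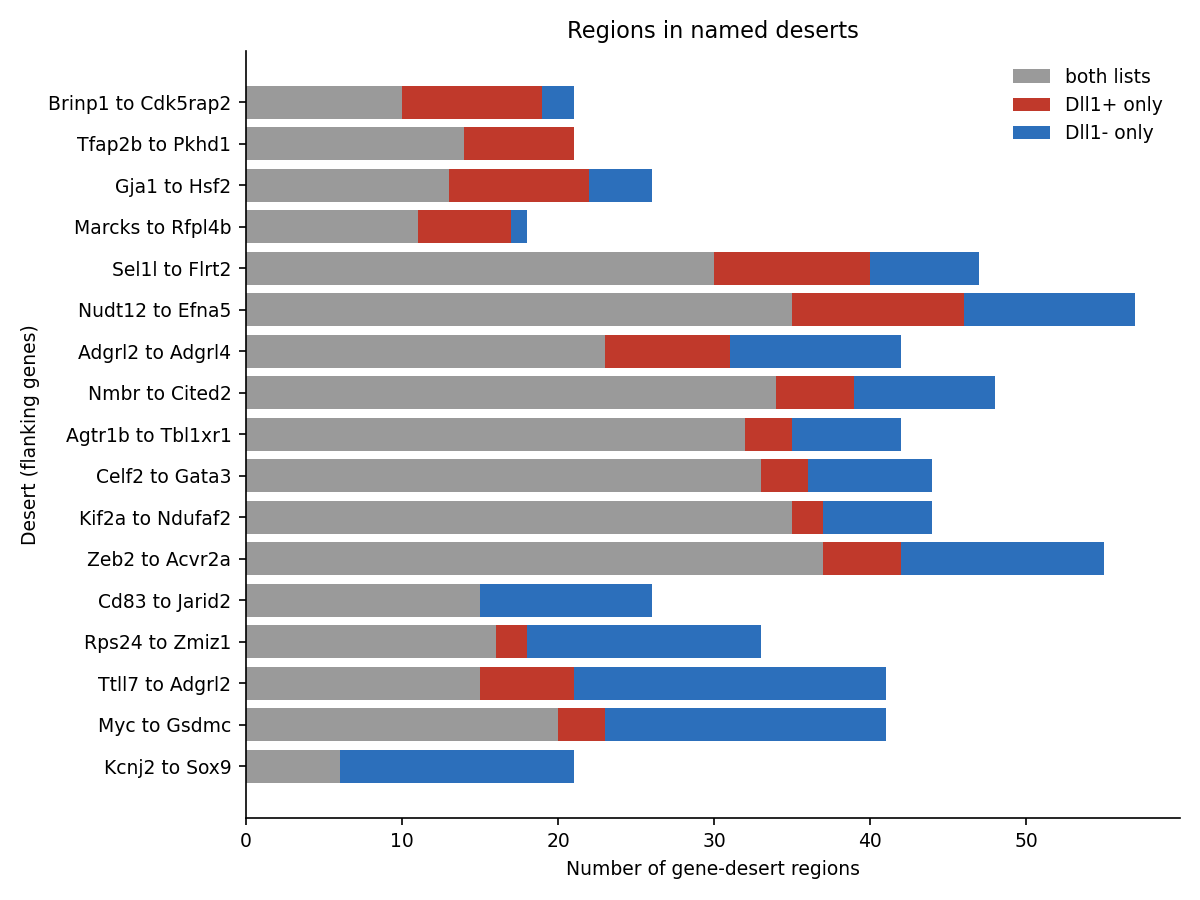
Number of gene-desert regions in both lists, in the Dll1+ list only and in the Dll1- list only for the deserts with the most regions and with the greatest excess of either class, named by flanking genes and ordered by the excess. The bars run from Brinp1 to Cdk5rap2, with 9 Dll1+ only and 2 Dll1- only, to Kcnj2 to Sox9, with 0 and 15.

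The genes that bordered desert regions were counted in 6 lists, which were chosen with a view to genes that border deserts, so that their shares are a description. A desert region had as nearest gene on either side 1018 of 21911 protein-coding genes (4.65%). Over all desert regions 14.98% were Dll1+ only and 26.3% Dll1- only, with a median log2 read ratio of 0.44. Of 82 developmental transcription factor genes, 46 did so (56.1%), with 595 regions of which 11.3% were Dll1+ only and 26.6% Dll1- only. Among them Sox2, a factor of stem cells, bordered 36 regions (23 in both lists, 2 Dll1+ only, 11 Dll1- only). Of 79 neuronal adhesion and synapse genes, 49 did so (62.0%), with 569 regions of which 18.3% were Dll1+ only and 24.3% Dll1- only. Their regions in both lists had a median log2 read ratio of 0.53, and those of the developmental factors 0.36. A list of 27 genes chosen for long-range regulation had 16 members beside a desert region, with 252 regions of which 8.73% were Dll1+ only and 32.5% Dll1- only. Of these regions Myc bordered 74 (7 Dll1+ only, 28 Dll1- only) and Sox9 bordered 48 (1 and 20). The shares of this list thus rest in large part on the deserts of Myc and Sox9.

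Of 35 mammary luminal and basal genes 2 bordered a desert region (5.71%), and of 43 NF-kB and Notch pathway genes also 2 (4.65%), shares near that of all protein-coding genes. One of these was Jag1, a Notch ligand gene, whose desert towards Btbd3 held 32 regions, of which 19 were in both lists, 2 Dll1+ only and 11 Dll1- only. Of 31 immune, endothelial and fibroblast genes 4 did so (12.9%), with 26 regions of which 2 were Dll1+ only (7.69%) and 14 Dll1- only (53.8%). The nearest gene on either side need not be the gene on which a region acts.

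Non-coding genes reached into the deserts. Within an annotated non-coding gene lay 773 desert regions (16.6%), nearly all of them long non-coding RNA genes (736), and 118 (2.54%) lay within 1 kb of a long non-coding RNA TSS. By class this was 2.97% of regions in both lists (2.40 to 3.68%), 2.62% of Dll1- only (1.86 to 3.67%) and 0.718% of Dll1+ only (0.307 to 1.67%). The interval of the Dll1+ only regions thus lay below those of the other classes. No such share was computed for all union regions, so this is not shown to be particular to the deserts. Within 1 kb of a protein-coding TSS and outside gene bodies, 2.88% of regions were Dll1+ only, against 9.01% of all union regions.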

How the data were processed

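Per the methods of the study, the authors processed all replicates of a cell group in 1 run of the ENCODE ATAC-seq pipeline. The optimal peak list of each group was used here. The build in the submitters' processing notes is mm10 (GRCm38), and 0 rows passed a chromosome end. The peak caller and its thresholds are not given in the sources used here, and the authors' later count per sample was not analysed here. The deposited fold enrichment is a ratio of reads at the summit to local background. Of the other deposited columns, the −log10 p-value was used, and the −log10 q-value was not. The deposited score followed the −log10 p-value up to a cap and was not used either.

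Gene positions came from GENCODE M21 and sequence from the GRCm38.p6 genome. Reads and background of each row were recovered from its fold, (reads + 1)/(background + 1), and its Poisson p-value, for all but 1 row. Depth is known only through this background. Ratios of reads were scaled by the genome-wide backgrounds, 3.74 and 7.20 reads. Shares carry Wilson and differences Newcombe 95% intervals, and medians carry 95% intervals from order statistics. Reads carry no molecular identifiers. Strength was the higher of the percentiles of fold in the lists, cut into 10 classes, and GC content was cut in classes of 4 points. A marker promoter began 1000 bp before and ended 100 bp after a TSS. Similarity to mitochondrial DNA was taken from blastn 2.17.0 at an E-value limit of 1e-10. Python 3.11.15, numpy 2.4.6, pandas 2.3.3, scipy 1.17.1 and pysam 0.24.0 were used. The read recovery, merging and searches were tested on simulated data.

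Named were the 10 deserts with the most regions, the 5 with the largest excess of each class, the 4 regions of highest fold in each class and the 3 farthest from a TSS, some of which are not reported here. Alternatives were other distances, gene sets, TSS, rows, depth scaling, overlap rules and windows. Members, gene lists and consensus sequences were chosen with earlier results of these data known.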

Additional observations from a re-analysis of the deposited data

How the results depend on the processing

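No alternative turned the direction of the difference in Dll1+ only share or in read ratio between desert regions and those at 1 to 250 kb, among the 14 run for the share and the 12 run for the ratio; the overlap rules were run for the share only. The cause of each change below was not tested unless the setting itself sets it. With a limit of 100 kb there were 12707 regions (15.2 per Mb), 60.9% in both lists and 12.7% Dll1+ only, 4.66 points above the nearer regions, with a median log2 read ratio of 0.36 and a difference in it of 0.14. With 500 kb there were 1336 (5.41 per Mb), 16.7% Dll1+ only and 24.2% Dll1- only, 7.63 points above, with 0.53 and 0.29. Counting genes of every type left 122 regions, 56.6% in both and 27.9% Dll1- only, with 0.58 and 0.33. Rows above the median fold gave 2726 regions at 61.4%, 18.9% and 19.7%, 8.69 points above, and an AP-1 difference of -31.8 points. Equal numbers of rows gave 16.7% and 23.6%. Overlap of at least 50% gave 51.4%, 18.8% and 29.8%, and summits within 100 bp gave 57.0% in both. A common p-value after depth scaling, added after seeing the data, gave 20.3% and 19.7%, 8.37 points above, and a median of 0.41. Depth scaling at the lowest p-value of the list kept 98.5% of Dll1- rows and so changed little. Weighting to strength and GC content, also added later, gave 3.66 points and a difference in mean log2 ratio of 0.12. Scaling to the median of all regions gave 0.20. A window of 50 bp each side gave an AP-1 difference of -21.1 points.

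Leaving out a replicate was not possible with pooled lists. No paired analysis was possible because the pooled lists carry no replicate numbers. Regions found in 1 list only were mostly weak: 182 of 696 Dll1+ only and 295 of 1223 Dll1- only regions had a strength at or above the 50th percentile. A fold or read count here is 1 value per cell group, without a spread between tumours.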

Other observations

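The following deserts were chosen after their values were seen, as the ends of the order of the 204 intervals with at least 5 regions in both lists. The highest median log2 read ratios were 1.25 between Gm10800 and B230118H07Rik (5 regions in both lists), 1.21 between Adgra3, an adhesion receptor gene, and Ppargc1a, a coactivator gene of mitochondrial biogenesis (7), 1.17 between Gm16223 and Cpeb2 (6) and 1.15 between Adam34 and the cadherin gene Fat1 (8). The desert of Adgra3 and Ppargc1a also held 5 Dll1+ only regions and 0 Dll1- only. The lowest were -0.63 between Cntnap4 and Mon1b, -0.62 between Msx2, a homeobox gene of epithelial appendages, and Drd1, and -0.31 between Rbfox1 and Tmem114, each with 5 regions in both lists. Median GC content was 39.0 to 41.9% in the deserts with ratios of 1.15 to 1.21, 41.3% between Gm10800 and B230118H07Rik, and 43.9%, 50.9% and 45.9% in the low ones in the order given. At these numbers of regions no order among the deserts is claimed.

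Beyond the strongest pair of each class, the region with the most reads of the named ones lay between Adam34 and Fat1 (chr8:44260983-44261737), with 777 Dll1+ reads and 993 Dll1- reads, a log2 ratio of 0.59. The region between Nmbr and Cited2 (chr10:16589247-16589874) lay 5.29 kb from the start of the long non-coding RNA gene Gm47729 and had 321 and 448 reads. Regions of the Dll1+ list alone between Ispd and the homeobox gene Meox2 (chr12:36752796-36753455) and between Mdga2 and Rps29 (chr12:68543933-68544476) had folds of 11.8 and 11.6. Of the Dll1- list alone, a region between Got2 and the cadherin gene Cdh8 (chr8:96920136-96920663) had a fold of 11.8 with an AP-1 match at its summit, and one between 4930452B06Rik and Fhit (chr14:9285872-9286334) had a fold of 11.2 and 55.9% GC.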
